A study of Mus musculus with 4 samples.

Results

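The Ikaros family genes Ikzf1, Ikzf2, Ikzf3, Ikzf4 and Ikzf5 were examined for streptavidin ChIP peaks in mouse thymocytes. A peak was taken as a family peak when its midpoint lay within the gene body of a member, as RefSeq gives it on the mm10 assembly, or within 50 kb on either side. By this rule 8 of the 4246 peaks of the NKT list and 14 of the 5198 peaks of the PLZF-transgenic list belonged to the family, and all 5 genes were found in the gene table. Peaks lay at Ikzf1, Ikzf3 and Ikzf4 in both lists, and no peak of either list fell in the window of Ikzf2 or Ikzf5.

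The study mapped PLZF, a BTB zinc finger transcription factor that directs the innate-like program of natural killer T cells, by pulling down PLZF-DNA complexes from sonicated thymus nuclei on streptavidin beads. The NKT library came from thymocytes of PLZF tg/BirA tg/Valpha14 tg mice, and the PLZF-transgenic library from thymocytes of PLZF tg/BirA tg mice, all on a C57BL/6 background. Both kinds of mice thus carried the PLZF transgene and BirA, a bacterial biotin ligase, and the NKT mice also carried a Valpha14 transgene, for the T cell receptor alpha chain that marks invariant natural killer T cells. The labels give no age, no promoter for any transgene and no sorting step, so NKT names a library here and not a purified cell type, and peak lists cannot show which cells were present.

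Each group had 1 library, so no difference between the lists has a replicate check and none was tested. Of the 4 samples, 2 were inputs and were not used here. The data used here hold no pull-down from animals that lack transgenic PLZF, so bound and nonspecific DNA cannot be told apart, and neither can fewer bound cells and weaker binding per cell. The value of a peak is the score that the authors deposited with it, on a scale that the files do not state. The depth of the libraries is unknown, and scores of both lists are given side by side only to describe each library. The NKT peaks had a median score of 73.8 and a median width of 224 bp, against 111 and 387 bp for the PLZF-transgenic peaks.

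Ikaros family proteins are zinc finger transcription factors of lymphocytes. Their N-terminal fingers bind DNA and their C-terminal fingers join family members into dimers, and in T cells they recruit chromatin complexes such as NuRD to their target genes. Ikzf1 encodes Ikaros, which lymphoid development requires. Ikzf3 encodes Aiolos, a partner of Ikaros in maturing lymphocytes. Ikzf2 and Ikzf4 encode Helios and Eos, both known from regulatory T cells, and Ikzf5 encodes Pegasus, the most divergent member.

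Family peaks overlapped a promoter window of the RefSeq table (GRCm38.p6, the assembly that mm10 names) at Ikzf1 and at Rps26, the neighbour of Ikzf4. A window runs from 250 bases before to 50 bases after a transcript start, and 2 members, Ikzf1 and Ikzf5, have windows in the table. Ikzf1 has 2 windows on the plus strand, chr11:11685675-11685974 and chr11:11689927-11690226, named here by their order along the gene. They are printed because a PLZF-transgenic peak began 30 bp beyond the second start. The Rps26 window, chr10:128626457-128626756 on the minus strand, is printed because it lay wholly within a peak of each list. In the second Ikzf1 sequence the capitals mark the 20 bases inside the PLZF-transgenic peak, and in the Rps26 sequence they mark the match to TGGGAA, the core of the Ikaros motif.
Ikzf1 first window: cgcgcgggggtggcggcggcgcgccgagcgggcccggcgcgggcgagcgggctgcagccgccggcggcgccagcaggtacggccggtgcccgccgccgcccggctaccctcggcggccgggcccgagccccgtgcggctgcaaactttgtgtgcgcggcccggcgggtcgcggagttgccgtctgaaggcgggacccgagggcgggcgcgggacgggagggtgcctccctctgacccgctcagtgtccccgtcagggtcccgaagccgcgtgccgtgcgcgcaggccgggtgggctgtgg
Ikzf1 second window: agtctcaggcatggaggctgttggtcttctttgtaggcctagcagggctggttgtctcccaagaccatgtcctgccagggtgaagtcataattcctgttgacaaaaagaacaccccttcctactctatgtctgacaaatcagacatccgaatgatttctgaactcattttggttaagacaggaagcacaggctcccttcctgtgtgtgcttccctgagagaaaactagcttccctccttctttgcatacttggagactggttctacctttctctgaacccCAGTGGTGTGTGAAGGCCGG
Rps26 window: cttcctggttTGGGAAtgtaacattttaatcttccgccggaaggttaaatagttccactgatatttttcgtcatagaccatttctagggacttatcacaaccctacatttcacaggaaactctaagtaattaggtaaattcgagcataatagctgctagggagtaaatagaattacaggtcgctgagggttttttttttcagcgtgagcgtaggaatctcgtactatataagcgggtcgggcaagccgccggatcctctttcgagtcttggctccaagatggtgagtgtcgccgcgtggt

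The first Ikzf1 window held no base of a peak in either list and was 81.3% G or C, whereas the second was 49.0% G or C. Both strands of the windows were searched for the Ikaros core TGGGAA, for TGTGGT (the RUNX core), for GGAAGT (an ETS core) and for E boxes of the form CACGTG as well as those of the form CAGCTG. The Ikaros and ETS cores can overlap, as they share the letters GGAA. Neither Ikzf1 window held any of them, and the Rps26 window held TGGGAA once, beginning at position -240 from the start, within the peaks of both lists. The Ikzf5 window, which no peak overlapped, held CAGCTG once, beginning at position 0 from the start. Of 32851 nuclear promoter windows, 25.6% held TGGGAA, 16.8% TGTGGT, 23.8% GGAAGT, 7.15% CACGTG and 16.3% CAGCTG. These matches describe the letters alone. Among the family peaks, 1 of 8 in the NKT list and 2 of 14 in the PLZF-transgenic list overlapped a promoter window. Of all nuclear peaks, 10.8% in NKT and 12% in PLZF-transgenic did so. Ikzf2, Ikzf3 and Ikzf4 have no window of their own, so a peak at their starts could not count through one, which limits this comparison.

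Ikzf1, on chromosome 11 (11684962 to 11772930), held the highest-scoring peak of the family in each list, and it was the same place in both. This peak lay inside the gene, about 41 kb from its lower boundary. It had a score of 241 in the NKT list (chr11:11725759-11726388) and of 844 in the PLZF-transgenic list (chr11:11725198-11726590). The NKT peak was 630 bp wide and lay wholly within the PLZF-transgenic peak of 1393 bp. Within its own list it ranked 376 of 4246 in NKT, the top 8.86%, and 77 of 5198 in PLZF-transgenic, the top 1.48%. The gene table gives no exons, so these places are described by gene body and not as exonic or intronic.

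A second place inside Ikzf1 was also common to both lists, 31.8 kb from the lower boundary in NKT and 31.9 kb in PLZF-transgenic. Its score was 70.6 in the NKT list (chr11:11716613-11716859) and 212 in the PLZF-transgenic list (chr11:11716522-11717122). The NKT value lay just below the median of its list, while the PLZF-transgenic peak was in the top 23.5% of its list.

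The other Ikzf1 peaks had no overlapping partner, and they lay in different places in the lists. In the NKT list they were 27.7 and 16.9 kb before the gene (chr11:11657214-11657399 and chr11:11667902-11668141), and scored 56.8 and 66.7. In the PLZF-transgenic list 1 peak lay 5.96 kb before the gene (chr11:11678708-11679306), with a score of 225. These peaks before the gene all had their midpoints within the noncoding gene Gm11999, whose span overlaps the beginning of Ikzf1. The nearest unpartnered NKT and PLZF-transgenic peaks among them were 10566 bp apart.

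Further PLZF-transgenic peaks without a partner stood inside Ikzf1, some of them near its annotated starts. A peak of score 66.7 (chr11:11687709-11688007) began 1784 bp beyond the first start, and a peak of score 74.3 (chr11:11690207-11690497) was the one that reached into the second promoter window. A peak of score 96.8 (chr11:11711805-11712158) lay 27.0 kb from the lower boundary, closer to the common places. All of them scored below the median of the PLZF-transgenic list, and the smallest gap to an NKT peak, from the peak of score 96.8, was 4454 bp.

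**Figure D1:**
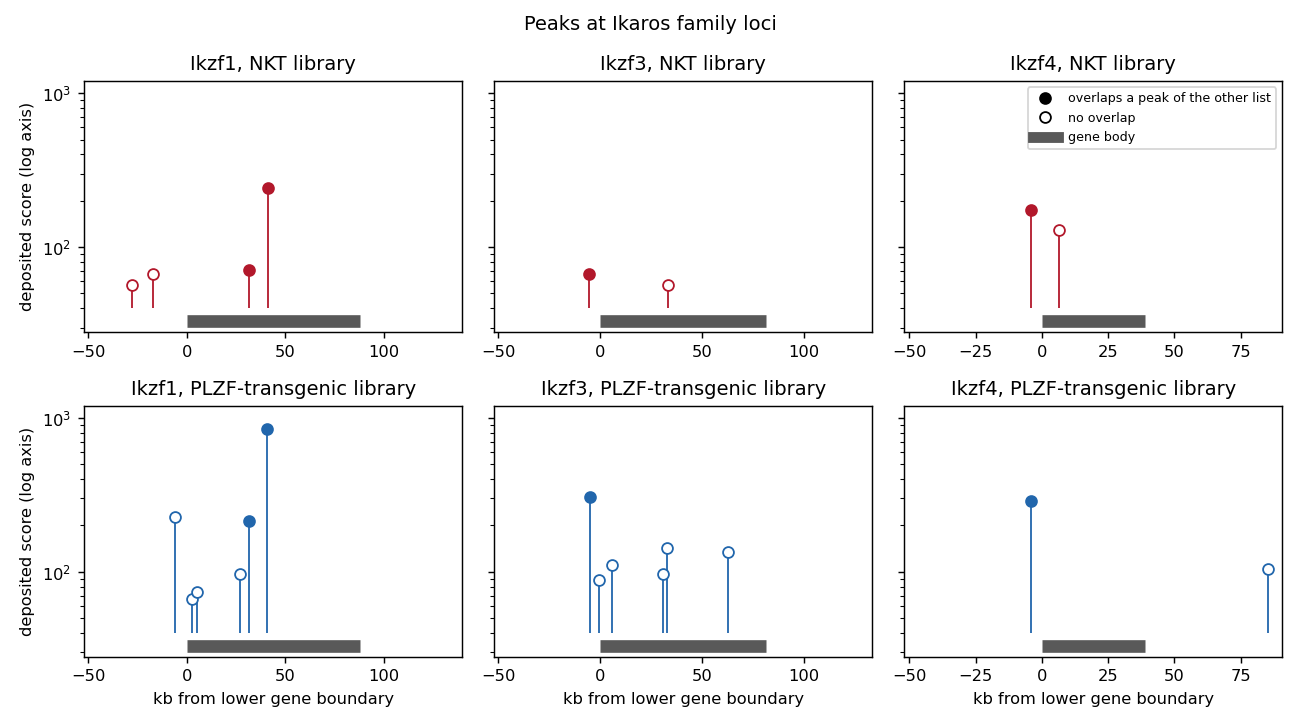
Peaks at Ikzf1, Ikzf3 and Ikzf4, plotted as the distance of the peak midpoint in kb from the lower gene boundary against the deposited score on a log axis, with the NKT library in the upper row and the PLZF-transgenic library in the lower row. Filled points overlap a peak of the other list, open points do not, and the grey bar is the gene body; the highest point of each row stands at Ikzf1 about 41 kb into the gene, at 241 in NKT and 844 in PLZF-transgenic.

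Ikzf3, also on chromosome 11 (98464610 to 98546031), showed the largest gap in peak number between the lists, with 2 NKT peaks and 6 PLZF-transgenic peaks. A single place was common to both. It had a score of 66.9 in the NKT list (chr11:98459283-98459464) and of 304 in the PLZF-transgenic list (chr11:98459103-98460027). Its midpoint was 5.24 kb from Ikzf3 in NKT and 5.05 kb in PLZF-transgenic. It stood closer to Mien1, whose boundary was 1.14 kb away in NKT and 1.33 kb in PLZF-transgenic, so the best-scored place in the Ikzf3 window of each list had another gene as its nearest.

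Inside Ikzf3 the NKT list had 1 peak (chr11:98497737-98497880), with a score of 56.4 and a width of 144 bp. No PLZF-transgenic peak overlapped it, but 1 of score 143 (chr11:98497236-98497651) ended 85 bp before it began. This pair counted as unshared by overlap and as shared when midpoints within 1 kb were used. The other PLZF-transgenic peaks in the gene scored 110 (chr11:98470134-98470528), 96.4 (chr11:98495221-98495527) and 135 (chr11:98526928-98527426). A last one, of score 87.9 (chr11:98464017-98464415), lay 0.394 kb outside the lower boundary. The PLZF-transgenic peaks inside Ikzf3 lay on both sides of the median score of their list, and none was in its top 10%.

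Ikzf4, on chromosome 10 (128630839 to 128669671), had 2 peaks in each list, of which 1 pair was common. The common place covered the start of Rps26, which encodes a protein of the small ribosomal subunit, and lay 4.21 kb from Ikzf4 in NKT and 4.14 kb in PLZF-transgenic. Its score was 175 in the NKT list (chr10:128626374-128626893) and 290 in the PLZF-transgenic list (chr10:128626399-128626996). The peaks were closer in width than at the other common places, 520 bp in NKT and 598 bp in PLZF-transgenic, and ranked alike, in the top 14.9% and the top 14.1% of their lists.

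The only peak inside Ikzf4 itself was an NKT peak of score 130 (chr10:128637017-128637369), in the top 23.7% of its list. It lay 6.35 kb from the lower boundary, and the nearest PLZF-transgenic peak was the one at Rps26, 10020 bp away. Among the NKT family peaks that had no partner it had the highest score. The second PLZF-transgenic peak of the window (chr10:128716123-128716502, score 104) lay 46.6 kb from Ikzf4 inside Pmel, a gene of pigment cell melanosomes. It was the family peak closest to the 50 kb limit on the inner side. The closest peaks on the outer side, 76.5 to 76.9 kb from Ikzf4, had scores of 104 and 158 in NKT and 348 in PLZF-transgenic, and their nearest genes were Dgka and Pym1.

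Ikzf2, on chromosome 1 (69531207 to 69687351), is the longest of the 5 genes, at 156 kb, and its window of 256 kb held no peak of either list. No other protein-coding gene lies in that window. Ikzf5, on chromosome 7 (131388649 to 131410518), had no peak in a window of 122 kb. A site below the score limit of the lists, near 50, would not be listed, so an empty window does not show that PLZF was absent there.

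**Figure D2:**
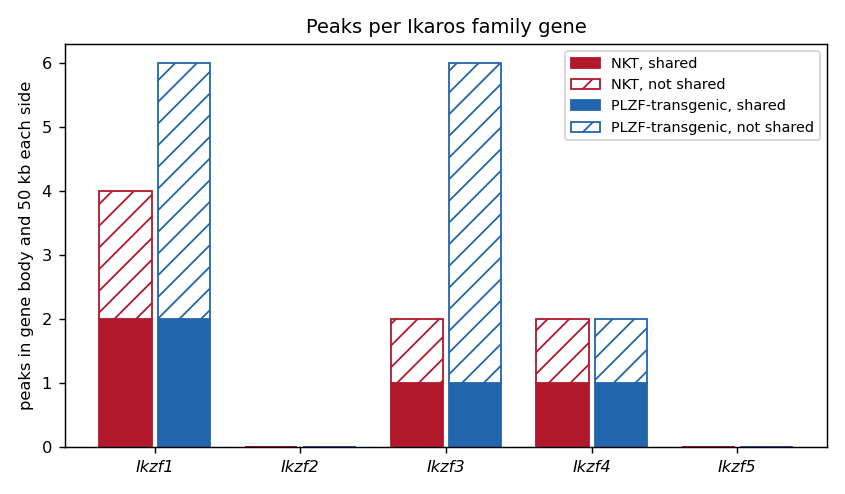
Number of peaks in the gene body and 50 kb on each side for each Ikaros family gene, with the NKT library left of the PLZF-transgenic library; solid parts overlap a peak of the other list and hatched parts do not. Ikzf1 had 4 and 6 peaks, Ikzf3 2 and 6, Ikzf4 2 and 2, and Ikzf2 and Ikzf5 had none.

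Across the family, 3 of 5 genes had a peak in the NKT list, where 26.3% of 21887 protein-coding genes had 1 under the same rule. The same 3 of 5 had PLZF-transgenic peaks, where 30.3% of protein-coding genes did, and 20.6% had a peak of both lists. With only peaks nearest to a member, 2 of 5 had PLZF-transgenic peaks, since those in the Ikzf4 window were nearest to Rps26 and Pmel. The share over all protein-coding genes was not counted for that narrower rule. For Ikzf1, 2.26% of protein-coding genes had as many NKT peaks or more, and 0.859% had as many PLZF-transgenic peaks or more. Ikzf3, with the same PLZF-transgenic count, stood at 0.859% in that list, but its 2 NKT peaks were matched or exceeded by 10.6% of genes. For Ikzf4 these shares were 10.6% in NKT and 13.2% in PLZF-transgenic. The NKT count of Ikzf1 depended on the rule. With 10 kb on either side Ikzf1 had 2 NKT and 6 PLZF-transgenic peaks, and no share over all genes was counted for these. Long windows can collect more peaks, and the windows of Ikzf1 and Ikzf3 were 188 and 181 kb long, against a median of 117 kb over all protein-coding genes. Per length, the 886 kb of family windows held 9.03 NKT and 15.8 PLZF-transgenic peaks per Mb, against 2.19 and 2.75 per Mb over the windows of all protein-coding genes. With 5 genes these values describe the family and were not tested.

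The share of family peaks with a partner in the other list had wide counting error. Of the NKT family peaks, 4 of 8 had a PLZF-transgenic partner, 50% (Clopper-Pearson exact 95% interval 15.7 to 84.3%, counting error only), against 60.7% of the whole list. Of the PLZF-transgenic family peaks, 4 of 14 overlapped an NKT peak, 28.6% (8.39 to 58.1%), against 45.7% of the whole list. The 60.7% lay within the first interval and the 45.7% within the second. At 3 of the 4 common places, those in Ikzf1 and the one near Mien1, the NKT peak lay entirely within the wider PLZF-transgenic peak, and midpoints differed by 64 to 192 bp over all 4.

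The family peaks scored well below the strongest sites, which reached 3104 in the NKT list and 3133 in the PLZF-transgenic list. In the NKT list they ran from 56.4 to 241 with a median of 68.7, and 3 of 8 were above the list's median score. In the PLZF-transgenic list they ran from 66.7 to 844 with a median of 123, and 7 of 14 were above that list's median. Only the common place 41 kb into Ikzf1 was in the top 10% of either list. Widths ran from 144 to 630 bp in NKT and from 291 to 1393 bp in PLZF-transgenic.

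**Figure D3:**
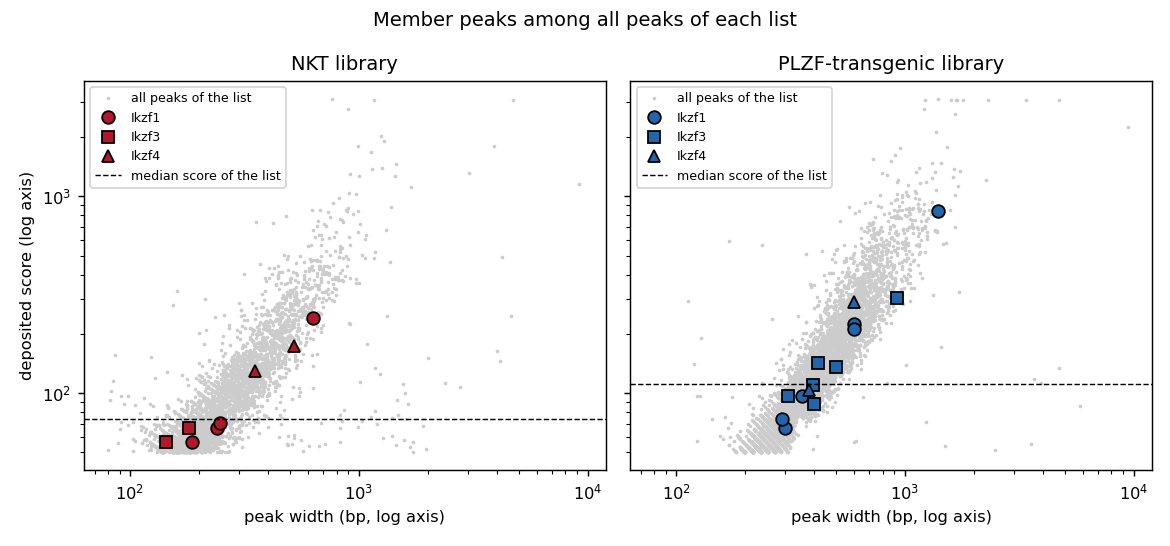
Deposited score against peak width in bp, both on log axes, for all peaks of each list (grey) and for the family peaks (coloured by library, shaped by gene), with the NKT library on the left and the PLZF-transgenic library on the right; the dashed line is the median score of the list. The Ikzf1 peak of score 241 in NKT and 844 in PLZF-transgenic stands above the other family peaks, most of which lie within the dense part of each list.

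For 7882 other protein-coding genes with a peak, likeness to Ikzf1 was taken as the Euclidean distance over 5 values, namely the NKT, PLZF-transgenic and shared NKT peak counts and the log2 of the highest score in each list. The nearest genes were Enthd1 (distance 1.13), Ccdc162 (1.14) and Maml3 (1.24). Enthd1 had 4 NKT and 6 PLZF-transgenic peaks, with highest scores of 239 and 585. Ccdc162 also had 4 and 6, with highest scores of 396 and 456. Maml3, which encodes a coactivator of Notch signalling, had 5 and 6, with highest scores of 304 and 536. The likeness rests on 1 library of each kind.

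Peaks were also counted at genes whose products work with Ikaros proteins or lie downstream of them, 41 in all. Of these, 23 had an NKT peak, 56.1%, and 26 a PLZF-transgenic peak, 63.4%, beside the 26.3% and 30.3% of all protein-coding genes. With 10 kb on either side in place of 50 kb, 14 and 16 had a peak, where 13% and 15.6% of protein-coding genes did. Of 19 co-repressor partners, 10 had a peak in the NKT list and 12 in the PLZF-transgenic list, and 10 had both. With 10 kb on either side, 6 had a peak in NKT and 8 in PLZF-transgenic. Sin3b, which encodes a co-repressor scaffold, had highest scores of 293 in NKT and 195 in PLZF-transgenic. Mbd3, which encodes a NuRD subunit, had 230 and 489, and Smarca4, the BRG1 remodelling ATPase, had 137 and 362, the NKT score first. Chd4, the main remodelling ATPase of NuRD, had no NKT peak and 2 PLZF-transgenic peaks, the higher of score 112. Mta1, another NuRD subunit, had 1 PLZF-transgenic peak of score 69.7 and none in NKT.

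The cereblon ubiquitin ligase is the complex through which thalidomide analogs in human cells degrade Ikaros and Aiolos. Of its 5 genes, 3 had a peak in NKT and 1 in PLZF-transgenic, beside 26.3% and 30.3% of all protein-coding genes. A single gene is 20% of this list, which limits both counts, and 1 of 5 cannot be told apart from the 30.3%. With 10 kb on either side the counts were 1 in NKT and 0 in PLZF-transgenic, where 13% and 15.6% of all protein-coding genes had a peak. That share was not counted for the 50% of each list that scored highest, where the counts were 1 and 1. Rbx1, its RING subunit, had scores of 76.0 in NKT and 232 in PLZF-transgenic. Crbn, which encodes cereblon, and Ddb1, its adaptor, had NKT peaks of scores up to 58.5 and 56.7 and no PLZF-transgenic peak. All 3 scores in NKT were near or below the median of 73.8.

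Known Ikaros targets of lymphocytes had peaks at 10 of 17 genes in NKT and 13 of 17 in PLZF-transgenic. These were 58.8% and 76.5%, beside 26.3% and 30.3% of all protein-coding genes. With 10 kb on either side, 7 and 8 had a peak, where 13% and 15.6% of protein-coding genes did. Cd4 had highest scores of 1158 in NKT and 2245 in PLZF-transgenic. The coreceptor gene Cd8b1 had 707 and 847 and Cd8a had 446 and 1137, the NKT score first. Regulatory DNA of Cd4 is widely used in T cell transgenes, and the sources used here do not say whether these transgenes carry it. Il7r, the interleukin-7 receptor gene, had no NKT peak and a PLZF-transgenic peak of score 94.3. Igll1 and Vpreb1, surrogate light chain genes, likewise had no NKT peak and shared 1 PLZF-transgenic peak of score 72.8 in overlapping windows. Windows of Cd8a and Cd8b1, of Rag1 and Rag2 and of Blnk and Dntt overlap in the same way, so their counts are not independent.

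Further gene lists, not chosen as Ikaros partners or targets, were counted by the same rule. Among T lineage factors, 3 of 4 genes of the Runx family with Cbfb had a peak in NKT and 4 of 4 in PLZF-transgenic. The shares over all protein-coding genes were 26.3% and 30.3%. With 10 kb on either side 2 of 4 Runx and Cbfb genes had a peak in each list, where 13% and 15.6% of protein-coding genes did. With the 50% of each list that scored highest, 3 had a peak in NKT and 2 in PLZF-transgenic. The share over all genes was not counted for that cut. Runx1 had 5 NKT and 11 PLZF-transgenic peaks, with highest scores of 241 and 356, Runx3 scored up to 255 and 84.3, and Runx2 up to 191 and 356. Cbfb, which encodes the partner subunit of Runx proteins, had a PLZF-transgenic peak of score 80.5 and no NKT peak. Tcf7 had 5 NKT and 8 PLZF-transgenic peaks with highest scores of 831 and 1760, and Lef1 had 4 and 3 with 124 and 177. Windows were long here, and long windows can collect more peaks. Their median was 241 kb for the Runx list and 175 kb for Tcf7 and Lef1, against 117 kb over all protein-coding genes.

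Of 8 B cell markers, which include the Ikaros target Cd79b, 4 had a peak in NKT and 5 in PLZF-transgenic. Ebf1 scored up to 224 in NKT and 160 in PLZF-transgenic and Blk up to 125 and 271, and Pax5 had a PLZF-transgenic peak of score 79.7 and no NKT peak. Of 8 myeloid and dendritic markers, 4 had a peak in NKT and 6 in PLZF-transgenic. Mpo scored up to 495 in NKT and 1251 in PLZF-transgenic and Flt3 up to 239 and 451. Itgam and Itgax, whose windows overlap, both had a highest NKT score of 139, beside 223 and 193 in PLZF-transgenic. S100a9 and Cd68 had PLZF-transgenic peaks of scores 58.5 and 54.9 and no NKT peak. Of 8 thymic stroma markers, 2 had a peak in NKT, Col1a1 (226, and 554 in PLZF-transgenic) and Epcam (51.7, and no PLZF-transgenic peak), and 1 had a peak in PLZF-transgenic. The stroma share in NKT, 25%, was close to the 26.3% of all protein-coding genes. In PLZF-transgenic it was 12.5%, which is 1 gene, beside 30.3% of all protein-coding genes. The B cell and myeloid shares lay above these 2 background shares, and with 8 genes per list no difference was tested. With 10 kb on either side, the counts were 3 in NKT and 2 in PLZF-transgenic for B cell markers, 2 and 2 for myeloid and dendritic markers, and 0 and 0 for stroma markers, where 13% and 15.6% of protein-coding genes had a peak. With the 50% of each list that scored highest, stroma markers had 1 and 1, a cut with no share over all genes counted. A peak in these windows can belong to a neighbour, and none of these lists was tested against the Ikaros family.

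**Figure D4:**
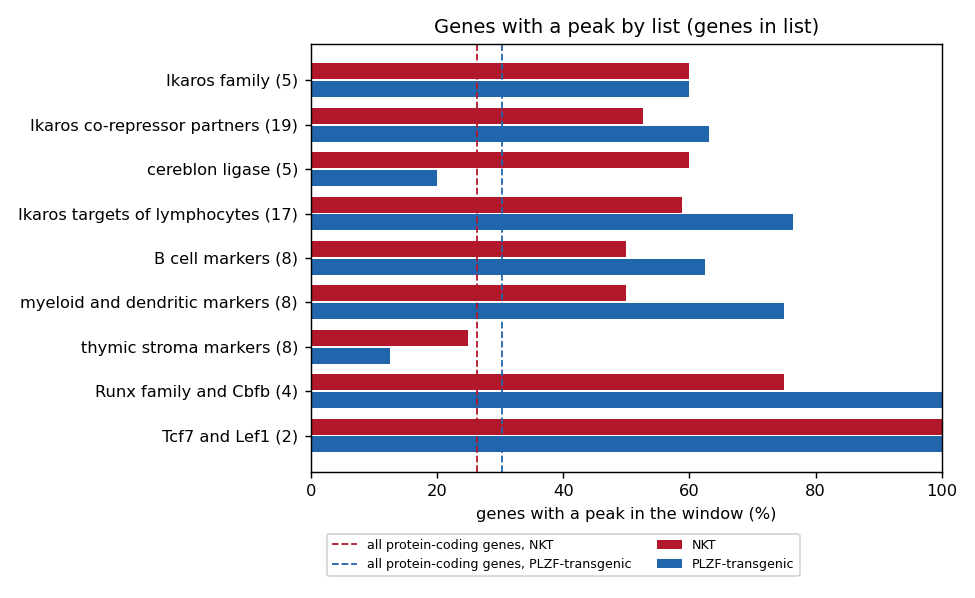
Share of genes with a peak in the gene body or within 50 kb, in percent, for the Ikaros family and for each gene list, with the NKT bar above the PLZF-transgenic bar and the number of genes in brackets; dashed lines give the share over all protein-coding genes, 26.3% in NKT and 30.3% in PLZF-transgenic. The Tcf7 and Lef1 bars (100% in both) and the Runx bars (75% and 100%) are the longest. Their median windows, 175 and 241 kb, are longer than the 117 kb over all protein-coding genes. The Ikaros family, its partners, its targets and the B cell and myeloid lists also lie above both lines. The cereblon ligase has 60% in NKT and 20% in PLZF-transgenic, where 20% is 1 gene. The thymic stroma list has 25% in NKT, close to the line, and 12.5% in PLZF-transgenic, which is 1 gene. None of these shares was tested.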

How the data were processed

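Streptavidin ChIP-seq was measured in 2 libraries of 1 sample each. The deposited files were peak lists without a header, whose peak names begin with MACS, and the last column was read as the authors' score of a peak. The submitters' processing notes name Bowtie, HOMER and Picard and the mm10 build, and the sources used here give no versions, no thresholds and no word on the input as a control for peak calling. Coordinates were made 1-based by adding 1 to each start.

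Gene spans and promoter windows came from RefSeq tables of GRCm38.p6. Peaks were shared when they overlapped by at least 1 bp. Exact Clopper-Pearson 95% intervals cover counting error only. No test between libraries was possible with 1 library per group. The counting was tested on simulated data. Python 3.11.15, pandas 2.3.3 and scipy 1.17.1 were used.

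The members and gene lists were chosen with earlier results of these data known. All members and their peaks were named, with the nearest gene of each peak; per gene list, up to 3 genes with a peak in both lists by NKT score and up to 2 with a peak in 1 list; and 3 genes most like Ikzf1. A gene that this rule names is not reported here. Alternatives changed the window, the peaks kept, the gene assignment and the overlap.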

Additional observations from a re-analysis of the deposited data

How the results depend on the processing

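Ikzf1, Ikzf3 and Ikzf4 held the family's peaks in both lists, and how many depended on the window and on the score. With the gene body alone, 4 NKT and 9 PLZF-transgenic family peaks remained within a member, and Ikzf4 had 1 of its 2 NKT peaks and no PLZF-transgenic peak. With the 50% of each list that scored highest, 3 NKT and 7 PLZF-transgenic peaks were counted, and Ikzf3 had no NKT peak. Ikzf1 had 1 NKT and 3 PLZF-transgenic peaks under that cut, and 2 and 5 with the gene body alone. With reciprocal overlap of 50%, the shared part was 12.5% of NKT and 7.14% of PLZF-transgenic family peaks, which is 1 peak of each list. This left the Rps26 place as the only common 1, since the PLZF-transgenic peaks are wider. The share of the whole lists was not counted under that rule, and the 60.7% and 45.7% belong to overlap by 1 bp. With 10 kb on either side, 14 of 41 partner, ligase and target genes had a peak in NKT and 16 in PLZF-transgenic. Under the alternatives run, the number of members with a peak ranged from 2 to 4 in each list, and with 100 kb Ikzf2 gained 1 peak in each. With 10 kb, 3 of 5 members had a peak in each list, where 13% and 15.6% of protein-coding genes did. For the other alternatives the share over all genes was not counted. With only peaks nearest to a member, 6 NKT and 11 PLZF-transgenic peaks were counted, and Ikzf4 had no PLZF-transgenic peak. Cutting the longer list to the length of the shorter changed no family count. The highest score stayed at Ikzf1 with the gene body alone and with nearest genes. No paired analysis was possible because each group had 1 library. Unknown depth limits every count of missing peaks.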

Other observations

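Beyond the 50 kb limit, a place common to both lists lay 81.6 kb from Ikzf2, with a score of 144 in NKT (chr1:69768708-69769122) and of 210 in PLZF-transgenic (chr1:69768631-69769208); its nearest protein-coding gene was Spag16. On the far side of Gm11999 from Ikzf1, 115 to 179 kb from Ikzf1 and nearest to 4930512M02Rik or Spata48, the NKT list had further peaks of scores from 55.7 to 168 and the PLZF-transgenic list had peaks of scores from 97.1 to 454. The highest of each, at chr11:11521846-11522399 in NKT and chr11:11521718-11522488 in PLZF-transgenic, overlapped.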
